A study of Mus musculus with 9 samples.

Results

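The 10 genes described here are 6 inhibitors of cyclin-dependent kinases (CDKs) and 4 genes of the p53 axis: Cdkn1a, Cdkn1b, Cdkn2a, Cdkn2b, Cdkn2c, Cdkn2d, Trp53, Mdm2, Ccng1 and Trp53inp1. They were taken by symbol from a table of 37224 mouse genes, each symbol matched 1 gene, and all 10 passed the filter on low counts among 18085 genes that did. RNA was sequenced from 3 kinds of C57BL/6 mouse cells with 3 libraries each. MEF libraries (replicates 1, 2 and 3) came from primary fibroblasts of E13.5 embryos at passage 0, which were trypsinised and not sorted. Their labels also name a move into a medium that induces neurons, and leave unsaid whether RNA was taken before or after it. iGABA libraries (replicates 4, 5 and 6) came from passage 0 fibroblasts after 14 days of reprogramming toward GABAergic interneurons, with the first 2 days in fibroblast medium, and were sorted for GFP. For the conversion the study is known to have delivered transcription factors that include Sox2, Dlx5 and Lhx6. GAD67 libraries (replicates 7, 8 and 9) came from interneurons of the E18.5 cortex, sorted for GFP as primary cells. Which gene drove GFP in the iGABA cells, how many cells or animals were pooled, and whether replicates were separate cultures or animals are not stated. Each p-value sets a difference between groups only against the spread among these libraries, and that spread may be technical.

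CDK inhibitors hold back the cell division cycle. The Cip/Kip proteins, p21 from Cdkn1a and p27 from Cdkn1b, bind cyclin-CDK complexes of several kinds, and the INK4 proteins bind only Cdk4 and Cdk6, the kinases that pair with D-type cyclins and inactivate the retinoblastoma protein. p53 is a transcription factor that is stabilised by DNA damage and other stress, switches on Cdkn1a among many targets, and is itself degraded through the ubiquitin ligase Mdm2, another of its targets. In the brain, p27 is known for its part in cell cycle exit and migration of newborn neurons, and in cultured fibroblasts the INK4 and p53 pathways are known for the arrest that ends their growth. Both pathways are also known as barriers to reprogramming.

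The labelled cell types were checked against marker lists. The summed level of 12 fibroblast markers ran from 80199 to 88893 CPM (counts scaled to a common library total) in MEF, 763 to 1064 CPM in iGABA and 139 to 146 CPM in GAD67 libraries. The MEF sum was mostly Col1a1 and Col1a2 (38876 and 24134 CPM). All 12 were called lower in iGABA than in MEF cells, but by unequal amounts. Thy1 and Pdgfra stayed at 164 ± 6.34 and 152 ± 11.8 CPM in iGABA against 409 ± 18.6 and 277 ± 4.31 CPM in MEF cells. The summed level of 12 cortical interneuron markers ran from 60.6 to 64.3 CPM in MEF, 992 to 999.9 CPM in iGABA and 10075 to 10617 CPM in GAD67 libraries. The summed interneuron level of iGABA cells, between those of the other cells, came mostly from Gad1 (405 ± 8.21 CPM) and Tubb3 (204 ± 4.31 CPM; SD, n = 3). It also holds Dlx5 (59.1 ± 0.611 CPM) and Lhx6 (75.5 ± 6.83 CPM), which were delivered to these cells. Gad2 and Slc32a1, genes of GABA synthesis and vesicle loading, stood at only 9.45 ± 1.05 and 2.83 ± 0.433 CPM in iGABA against 514 ± 34.4 and 186 ± 3.50 CPM in GAD67 cells. Stmn2, a neuronal microtubule gene, was lower in iGABA than in MEF cells (log2 difference -0.52, edgeR adjusted p = 7.22e-05). In MEF libraries, 10 markers of macrophages and microglia summed to between 474 and 518 CPM and 7 endothelial markers to between 236 and 254 CPM. In iGABA libraries these sums ran from 0.812 to 0.938 CPM and from 2.25 to 4.82 CPM. The endothelial sum of MEF libraries was mostly the single gene Flt1 (228 ± 8.00 CPM), with Kdr at 11.8 CPM and Tek at 1.82 CPM. Pecam1, Cdh5 and Emcn stood at only 0.243, 0.321 and 0.532 CPM and Cldn5 at 0, so that sum does not show endothelial cells. The part of macrophages, or of any other cells, in the MEF values below was not tested. In such bulk libraries, fewer cells that express a gene and less RNA per cell cannot be told apart.

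Among the 6 inhibitors, Cdkn1a had the highest level in MEF and iGABA cells and Cdkn1b in GAD67 cells. These 6 leave out Cdkn1c, which encodes the other Cip/Kip protein p57 and was the most abundant CDK inhibitor transcript of MEF cells, so it is given beside them. Levels between genes are compared as RPKM, which are CPM, that is counts scaled to a common library total, per kilobase of exon. The 6 inhibitors summed to 256 ± 6.18 RPKM in MEF, 324 ± 8.80 RPKM in iGABA and 97.0 ± 4.15 RPKM in GAD67 cells (SD, n = 3). Of this sum, Cdkn1a made up 59.5% ± 1.12 in MEF, 74.1% ± 0.607 in iGABA and 3.07% ± 0.964 in GAD67 cells (SD, n = 3). Cdkn1b took the larger place in the cortical cells, with 13.4% ± 0.343 in MEF, 13.1% ± 0.929 in iGABA and 75.4% ± 2.76 in GAD67 cells (SD, n = 3). Without the correction for length, in CPM, the shares of Cdkn1b were 26.3%, 24.5% and 90.02%. The ratio of Cdkn1a to Cdkn1b in RPKM was 4.26, 4.51 and 4.57 in the MEF libraries, 5.63, 5.23 and 6.11 in the iGABA libraries and 0.0376, 0.0565 and 0.0289 in the GAD67 libraries. Each iGABA library thus had a higher ratio than each MEF library, and in GAD67 libraries Cdkn1b was the higher of the pair by 17.7 to 34.6 times.

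Cdkn1c stood at 304 ± 13.6 RPKM in MEF, 48.8 ± 9.63 RPKM in iGABA and 14.1 ± 1.35 RPKM in GAD67 cells (SD, n = 3). iGABA cells were 6.24-fold below MEF cells (edgeR adjusted p = 2.52e-10) and 3.46-fold above GAD67 cells (edgeR adjusted p = 1.60e-08). With Cdkn1c the 7 transcripts summed to 560.2 ± 19.7 RPKM in MEF, 373 ± 18.3 RPKM in iGABA and 111 ± 5.39 RPKM in GAD67 cells (SD, n = 3), so the order of MEF and iGABA turned. Cdkn1c then made up 54.2% ± 0.525 of the sum in MEF cells, and Cdkn1a made up 27.2% ± 0.203 in MEF and 64.5% ± 1.001 in iGABA cells. Cdkn1b made up 65.8% ± 1.97 of the sum of 7 in GAD67 cells. This wider sum was chosen after the values were seen.

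**Figure D1:**
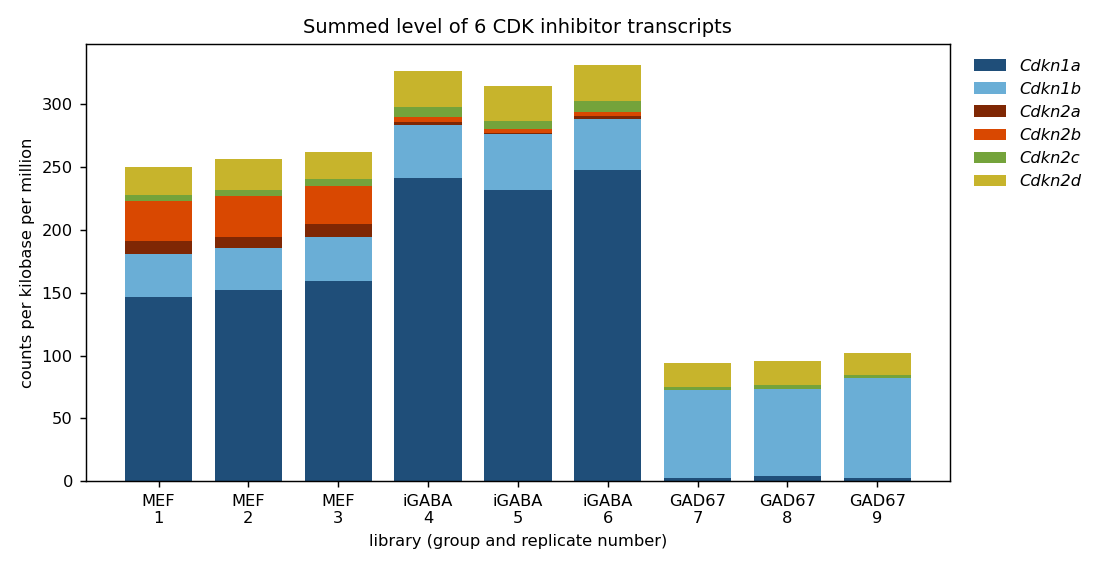
Level of the 6 CDK inhibitors in RPKM, stacked in each of the 9 libraries; Cdkn1c, at 304 RPKM in MEF cells, is not drawn. Cdkn1a fills most of each MEF and iGABA bar, and Cdkn1b fills most of each GAD67 bar.

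Cdkn1a (ENSMUSG00000023067, mm10 chromosome 17, 29090979 to 29100722, plus strand) encodes p21, the inhibitor through which p53 arrests dividing cells. Its level was 147, 152 and 159 RPKM in the MEF libraries, 241, 232 and 248 RPKM in the iGABA libraries and 2.63, 3.95 and 2.31 RPKM in the GAD67 libraries. The 3 groups did not overlap, iGABA libraries were highest, and the GAD67 libraries held only a small residue. Cdkn1a was 1.57-fold higher in iGABA than in MEF cells (log2 difference 0.65, 95% interval 0.41 to 0.90, edgeR adjusted p = 0.000137). Against GAD67 cells it was 80.9-fold higher in iGABA cells (log2 difference 6.34, 95% interval 6.01 to 6.66, edgeR adjusted p = 3.94e-13), which placed it 397th from the top among 18085 genes tested. From MEF to GAD67 it was 51.4-fold lower (log2 difference -5.68, 95% interval -6.001 to -5.37, edgeR adjusted p = 4.25e-13). The iGABA cells therefore stood beyond MEF, on the side away from the cortical cells.

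Cdkn1b (ENSMUSG00000003031, chromosome 6, 134920401 to 134925513, plus strand) encodes p27, an inhibitor that is set largely by protein turnover. Its level was 34.4, 33.6 and 34.9 RPKM in the MEF libraries, 42.8, 44.3 and 40.5 RPKM in the iGABA libraries and 69.96, 69.8 and 79.9 RPKM in the GAD67 libraries. The order was MEF, iGABA, GAD67 with no overlap. It was 1.24-fold higher in iGABA than in MEF cells (log2 difference 0.31, 95% interval 0.17 to 0.45, edgeR adjusted p = 0.000486). In GAD67 cells it was 2.13-fold higher than in MEF cells (log2 difference 1.09, 95% interval 0.96 to 1.23, edgeR adjusted p = 1.77e-09). Against GAD67 cells iGABA cells were lower (log2 difference -0.78, 95% interval -0.92 to -0.65, edgeR adjusted p = 7.88e-08). Of the 10 genes, Cdkn1b alone was called higher in GAD67 than in either of the other cell types.

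The 4 INK4 genes split into a pair that was low outside the fibroblasts and a pair that was highest in iGABA cells. Cdkn2a (ENSMUSG00000044303, chromosome 4, 89274473 to 89294653, minus strand) holds 2 products, the INK4 protein p16 and, from another first exon and reading frame, Arf, which blocks Mdm2, and the gene count does not separate them. Its level was 10.4, 9.06 and 10.1 RPKM in the MEF libraries and 2.24, 1.29 and 1.79 RPKM in the iGABA libraries. The GAD67 libraries held 1, 0 and 0 reads of it, where a count of 0 allows up to 3 counts. iGABA cells were 5.56-fold below MEF cells without overlap (log2 difference -2.48, 95% interval -2.88 to -2.07, edgeR adjusted p = 4.57e-08). Scaled for depth, 1046 counts over the MEF libraries against 1 count over the GAD67 libraries gave a ratio of 1293, with a 95% counting interval of 232 to 51126. For 236 counts over the iGABA libraries the ratio to GAD67 cells was 232, with a counting interval of 41.2 to 9198. These intervals cover counting error only. The edgeR fit placed GAD67 cells 926-fold below MEF cells (log2 difference -9.86, edgeR adjusted p = 5.11e-11). It placed iGABA cells 167-fold above GAD67 cells (log2 difference 7.38, edgeR adjusted p = 2.31e-08). Both fitted folds rest on the same 1 count in GAD67 cells.

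Cdkn2b (ENSMUSG00000073802, chromosome 4, 89306289 to 89311032, minus strand) encodes p15, an INK4 protein known to be induced by TGF-beta, and lies 11635 bases from Cdkn2a. Its level was 31.6, 32.2 and 30.4 RPKM in the MEF libraries, 3.75, 3.33 and 3.59 RPKM in the iGABA libraries and 0.110, 0.0190 and 0.0608 RPKM in the GAD67 libraries. The GAD67 values rest on 6, 1 and 3 reads, so they are near the limit of these libraries. iGABA cells were 8.83-fold below MEF cells (log2 difference -3.14, 95% interval -3.38 to -2.91, edgeR adjusted p = 1.50e-11). They were 53.5-fold above GAD67 cells (log2 difference 5.74, 95% interval 5.24 to 6.25, edgeR adjusted p = 7.59e-11), and GAD67 cells were 472-fold below MEF cells (log2 difference -8.88, edgeR adjusted p = 6.79e-14). On the log2 scale the step from MEF to iGABA covered 35.4% of the distance from MEF to GAD67 for Cdkn2b and 25.1% for Cdkn2a, where the latter rests on 1 read in GAD67 cells.

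Cdkn2c (ENSMUSG00000028551, chromosome 4, 109660876 to 109667189, minus strand) and Cdkn2d (ENSMUSG00000096472, chromosome 9, 21288463 to 21291209, minus strand) encode the INK4 proteins p18 and p19, which are known from developing tissues, the brain among them. Cdkn2c stood at 4.70, 4.91 and 5.51 RPKM in the MEF libraries, 7.80, 5.79 and 8.81 RPKM in the iGABA libraries and 2.44, 3.05 and 2.25 RPKM in the GAD67 libraries. The lowest iGABA library lay just above the highest MEF library, and the GAD67 libraries lay below both. Cdkn2c was 1.48-fold higher in iGABA than in MEF cells (log2 difference 0.56, 95% interval 0.23 to 0.89, edgeR adjusted p = 0.00395). It was 2.88-fold higher in iGABA than in GAD67 cells (log2 difference 1.53, 95% interval 1.19 to 1.87, edgeR adjusted p = 1.05e-06), and GAD67 lay below MEF cells (log2 difference -0.97, 95% interval -1.31 to -0.62, edgeR adjusted p = 8.03e-05). The 16 proliferation genes summed to 595, 424 and 697 CPM in iGABA replicates 4, 5 and 6, which is the order of Cdkn2c in those libraries, and their part in it was not tested.

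Cdkn2d stood at 22.4, 24.9 and 22.0 RPKM in the MEF libraries, 28.9, 27.9 and 28.7 RPKM in the iGABA libraries and 18.8, 18.46 and 17.2 RPKM in the GAD67 libraries. The 3 groups were again separate, with iGABA highest. Cdkn2d was 1.23-fold higher in iGABA than in MEF cells (log2 difference 0.30, 95% interval 0.16 to 0.45, edgeR adjusted p = 0.000997) and 1.57-fold higher than in GAD67 cells (log2 difference 0.65, 95% interval 0.50 to 0.79, edgeR adjusted p = 1.19e-06). GAD67 cells were below MEF cells (log2 difference -0.34, 95% interval -0.49 to -0.20, edgeR adjusted p = 0.000387), a call that was lost when libraries were scaled by total counts alone (log2 difference -0.12, adjusted p = 0.112). In iGABA and GAD67 cells Cdkn2d was the INK4 gene with the highest RPKM, and in MEF cells Cdkn2b was.

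**Figure D2:**
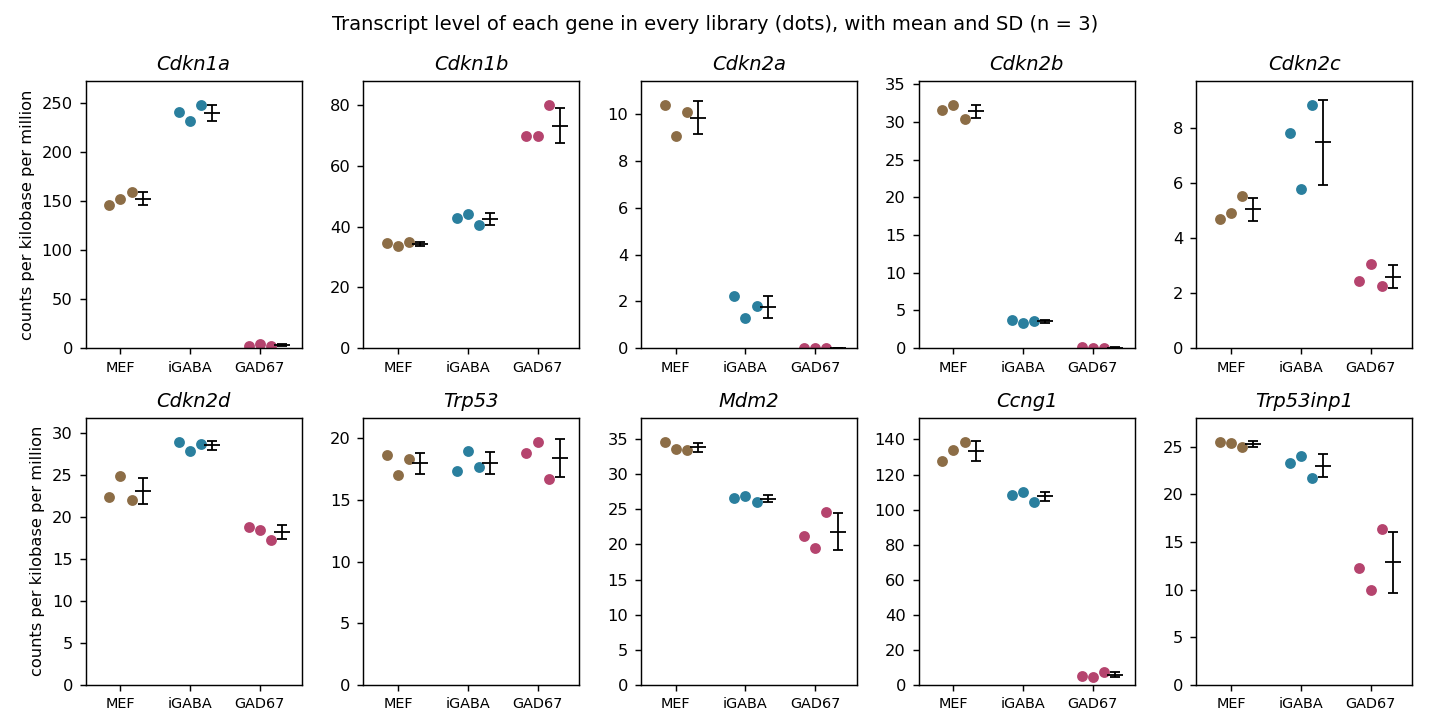
Level of each of the 10 genes in RPKM, with 1 panel per gene, each on its own linear axis from 0; points are libraries and bars give the mean and SD of 3 libraries. Trp53 is level across the 3 cell types, while Cdkn1a and Ccng1 are high in MEF and iGABA and low in GAD67 cells.

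Trp53 (ENSMUSG00000059552, chromosome 11, 69580359 to 69591873, plus strand), the p53 gene, was close to the same level in all 9 libraries. It stood at 18.7, 17.0 and 18.3 RPKM in the MEF libraries, 17.4, 19.01 and 17.6 RPKM in the iGABA libraries and 18.8, 19.7 and 16.7 RPKM in the GAD67 libraries. The groups overlapped in each comparison. The log2 difference was 0.00 between iGABA and MEF (95% interval -0.15 to 0.15, edgeR adjusted p = 0.991), 0.03 between GAD67 and MEF (95% interval -0.12 to 0.18, edgeR adjusted p = 0.653) and -0.03 between iGABA and GAD67 (95% interval -0.18 to 0.12, edgeR adjusted p = 0.671). The bounds correspond to folds of 0.902 to 1.11, 0.923 to 1.14 and 0.882 to 1.08. Scaling by total counts alone moves the median of all genes, from 0.05 to 0.46 for iGABA against MEF and from 0.00 to 0.22 for GAD67 against MEF. Trp53 then differed by 0.42 (adjusted p = 0.000158) and 0.26 (adjusted p = 0.00501), close to those medians. RNA levels do not show the amount or activity of the p53 protein, which is controlled mostly after translation.

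Mdm2 (ENSMUSG00000020184, chromosome 10, 117688888 to 117710758, minus strand), the ubiquitin ligase that holds p53 low, was highest in MEF cells. Its level was 34.6, 33.5 and 33.4 RPKM in the MEF libraries, 26.7, 26.9 and 26.0 RPKM in the iGABA libraries and 21.3, 19.5 and 24.7 RPKM in the GAD67 libraries. The groups did not overlap, and the order was MEF, iGABA, GAD67. The log2 difference was -0.35 for iGABA against MEF (95% interval -0.51 to -0.19, edgeR adjusted p = 0.000551), -0.63 for GAD67 against MEF (95% interval -0.79 to -0.48, edgeR adjusted p = 2.29e-06) and 0.28 for iGABA against GAD67 (95% interval 0.13 to 0.44, edgeR adjusted p = 0.00285). With total counts alone as the scale the first became 0.0651 (adjusted p = 0.399), which is -0.40 relative to the median of all genes under that scale. Cdkn1a and Mdm2, both p53 targets, thus moved in opposite directions between MEF and iGABA cells, relative to the median gene.

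Promoter sequence was examined for the sites that p53 is known to bind, which are built from a 10-base motif, the p53 decamer, usually present as an adjacent pair. RefSeq start sites on GRCm38.p6 gave 12 windows for 9 of the 10 genes, all but Trp53inp1, each of 300 bases from 250 before to 50 after the start. The decamer was searched on both strands, with no mismatch. It was found in 5 of the 12 windows, those of Cdkn1a (the upstream of its 2 start sites, which lie 2790 bases apart), Cdkn2d, Trp53, Mdm2 and Ccng1, and in 8.36% of 32851 windows of all genes. The stretches around these matches are shown because 3 of the 5 genes are known p53 targets. They run 5′ to 3′ on the strand of the gene, and capitals mark the decamers, for Cdkn1a and Ccng1 with the adjacent pair in 1 run of 20 bases:
Cdkn1a, chr17:29090881-29090972, plus strand: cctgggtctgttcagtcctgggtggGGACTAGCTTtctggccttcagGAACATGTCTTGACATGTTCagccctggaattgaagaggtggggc
Cdkn2d, chr9:21291277-21291336, minus strand: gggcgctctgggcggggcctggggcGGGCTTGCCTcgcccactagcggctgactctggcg
Trp53, chr11:69580259-69580318, plus strand: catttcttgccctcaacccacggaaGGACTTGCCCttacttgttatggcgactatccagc
Mdm2, chr10:117710910-117710969, minus strand: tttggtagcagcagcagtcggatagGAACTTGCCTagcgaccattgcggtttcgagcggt
Ccng1, chr11:40755437-40755506, minus strand: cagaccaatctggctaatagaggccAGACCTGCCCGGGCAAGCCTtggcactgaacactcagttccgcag

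An adjacent pair with at most 1 mismatch in 20 positions, a pattern chosen after the sequences were seen, was present in the windows of Cdkn1a, from 51 to 32 bases before the start, and Ccng1, from 195 to 176 bases before the start. It was found in 29 of the 32851 windows, or 0.0883%. The Sp1 motif GGGCGG was found in 8 of the 12 windows and in 35.7% of all windows, and no window of the 12 held an E2F motif (TTTCGCGC or TTTGGCGC), which 0.813% of all windows held. Both Cdkn2a windows and the Cdkn2b window held no decamer. Sequence outside the windows was not searched, and the Mdm2 window held a lone decamer without an adjacent pair. A match describes letters only, since no binding was measured here.

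Ccng1 (ENSMUSG00000020326, chromosome 11, 40748552 to 40755311, minus strand) encodes cyclin G1, a p53 target that acts back on Mdm2. Its level was 128, 134 and 139 RPKM in the MEF libraries, 108, 109.8 and 104 RPKM in the iGABA libraries and 5.27, 4.51 and 7.20 RPKM in the GAD67 libraries. MEF and iGABA libraries were close but separate, and GAD67 libraries were far below both. GAD67 cells were 23.6-fold below MEF cells (log2 difference -4.56, 95% interval -4.85 to -4.27, edgeR adjusted p = 1.75e-12), and iGABA cells were 19.01-fold above GAD67 cells (log2 difference 4.25, 95% interval 3.96 to 4.54, edgeR adjusted p = 5.92e-12). iGABA cells were slightly below MEF cells (log2 difference -0.31, 95% interval -0.56 to -0.06, edgeR adjusted p = 0.0224). That call was lost without MEF replicate 2 (-0.31, adjusted p = 0.05004), without MEF replicate 3 (-0.29, adjusted p = 0.0644), without iGABA replicate 4 (-0.31, adjusted p = 0.0582) and without iGABA replicate 6 (-0.29, adjusted p = 0.0704). It turned to 0.11 (adjusted p = 0.389) with total counts alone as the scale.

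Trp53inp1 (ENSMUSG00000028211, chromosome 4, 11156431 to 11174379, plus strand) encodes a stress-induced partner of p53 with roles in cell death and autophagy. Its level was 25.5, 25.4 and 24.97 RPKM in the MEF libraries, 23.2, 24.1 and 21.7 RPKM in the iGABA libraries and 12.3, 9.93 and 16.3 RPKM in the GAD67 libraries. Each iGABA library was below each MEF library by a small margin, and the GAD67 libraries were low and spread widely. The difference between iGABA and MEF did not pass the test (log2 difference -0.14, 95% interval -0.41 to 0.14, edgeR adjusted p = 0.338), and it passed when only those 6 libraries were fitted (-0.12, adjusted p = 0.0299). GAD67 cells were below MEF cells (log2 difference -0.98, 95% interval -1.26 to -0.70, edgeR adjusted p = 1.01e-05), and iGABA cells were 1.79-fold above GAD67 cells (log2 difference 0.84, 95% interval 0.56 to 1.12, edgeR adjusted p = 4.81e-05). Within the GAD67 libraries, Cdkn1b, Mdm2, Ccng1 and Trp53inp1 were lowest in replicate 8 and highest in replicate 9, and Cdkn1a, Cdkn2c and Trp53 were highest in replicate 8 and lowest in replicate 9. For Cdkn1b, replicates 7 and 8 were almost equal, at 69.96 and 69.8 RPKM. The 7 endothelial markers summed to 27.1, 13.7 and 49.3 CPM and the 5 red blood cell markers to 28.7, 18.7 and 48.1 CPM in replicates 7, 8 and 9, the order of the first 4 genes, with none of these 12 markers at 0 in all 3 libraries. So did the 8 glutamatergic markers, at 55.5, 45.0 and 75.6 CPM. The 12 immediate early and dissociation genes summed to 585, 735 and 329 CPM in those replicates, the order of the other 3 genes. The part of these cells and of dissociation in the values of the 7 genes was not tested.

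Set side by side, 4 of the 10 genes were called higher and 4 lower in iGABA than in MEF cells, beside 81.9% of all tested genes called in either direction, 42.1% higher and 39.7% lower. That share is near the background. At least 2-fold calls were 0 higher, against 23.9% of all genes, and 2 lower (Cdkn2a and Cdkn2b), against 23.8%. With total counts alone as the scale, 5 were called higher and 2 lower, and over all genes the share of calls that were higher moved from 51.5% to 65.3%. Between GAD67 and MEF cells 1 gene was higher and 8 were lower, beside 86.9% of all genes called, 43.1% higher and 43.8% lower. In iGABA against GAD67 cells 8 were higher and 1 was lower, beside 80.6% called, 41.3% higher and 39.3% lower. Of the 8, 5 were at least 2-fold higher, against 26.6% of all genes. The libraries of the groups compared did not overlap for 9 of the 10 genes in each comparison, against 84.9%, 87% and 82.3% of all genes. The median log2 difference of the 10 genes was -0.07, -0.97 and 1.19 in the 3 comparisons in that order, against 0.05, 0.00 and 0.02 for all tested genes. The comparisons share libraries, so these counts are not independent of each other.

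**Figure D3:**
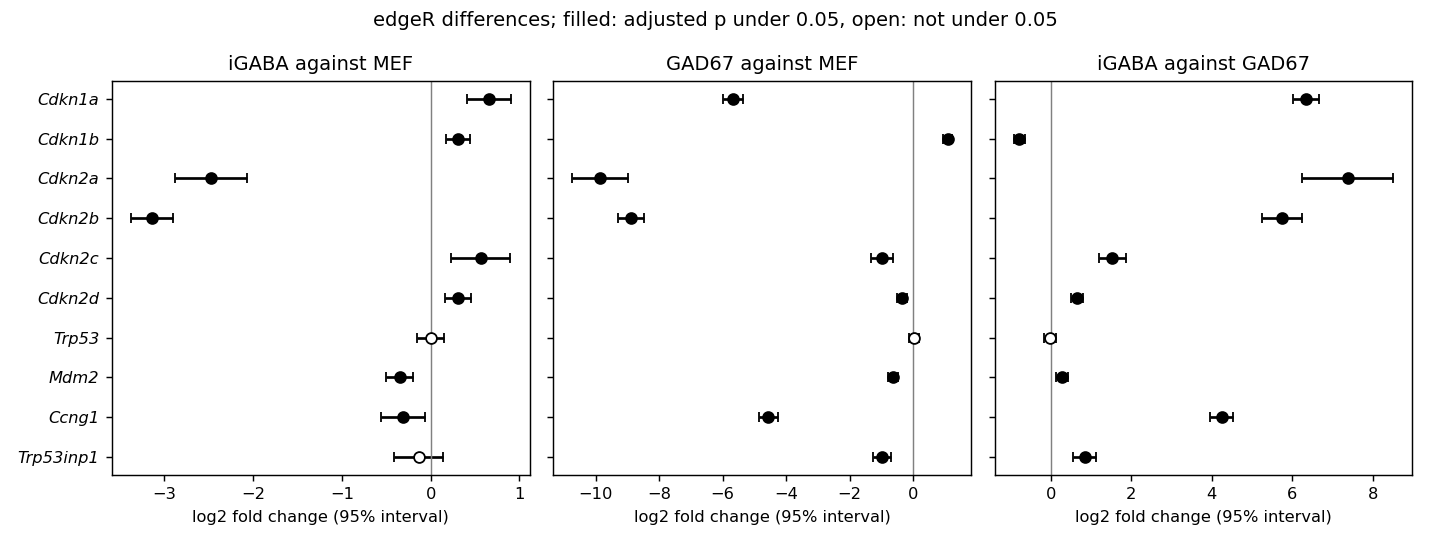
Log2 difference of each of the 10 genes in the 3 comparisons, with 95% intervals from the edgeR fit; the horizontal ranges of the panels differ, and the fitted Cdkn2a values against GAD67 cells rest on 1 read. In the panel of iGABA against GAD67 cells, 8 genes lie to the right of 0, Trp53 lies at it and Cdkn1b lies to the left.

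Genes that the inhibitors act on, or that act on them, were counted in lists. Of all tested genes, 81.9% were called between iGABA and MEF cells, 42.1% higher and 39.7% lower in iGABA cells. Between GAD67 and MEF cells 86.9% were called, 43.1% higher and 43.8% lower in GAD67 cells. Between iGABA and GAD67 cells 80.6% were called, 41.3% higher and 39.3% lower in iGABA cells. Shares of called genes near these are not a result about a list. Of the 2 other CDK inhibitors, Cdkn1c and Cdkn3, both were lower in iGABA and in GAD67 than in MEF cells. Among 8 G1 cyclins and CDKs, 3 were higher and 4 lower in iGABA than in MEF cells, and 1 was higher and 7 lower in GAD67 than in MEF cells. Cdk6, a target of the INK4 proteins, fell from 22.2 ± 3.33 CPM in MEF to 0.587 ± 0.319 CPM in iGABA cells (edgeR adjusted p = 5.44e-10). Ccnd1, the gene of cyclin D1, stood at 83.6 ± 17.3 CPM in iGABA and 3.68 ± 1.54 CPM in GAD67 cells, a 22.8-fold difference (edgeR adjusted p = 5.06e-10). Cdk4 was higher in GAD67 cells, with 369 ± 4.25 CPM against 253 ± 2.82 CPM in iGABA cells (edgeR adjusted p = 3.31e-07).

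Among 13 RB and E2F genes, 5 were higher and 5 lower in iGABA than in MEF cells, or 9 and 3 when libraries were scaled by total counts alone. For both lists of this paragraph, the shares over all tested genes were 42.1% higher and 39.7% lower. E2f2, which encodes an activating E2F factor, rose 34.4-fold, from 1.81 ± 0.424 CPM in MEF to 62.8 ± 0.116 CPM in iGABA cells (edgeR adjusted p = 1.94e-12). Rb1, the retinoblastoma gene, was 83.0 ± 12.4 CPM in GAD67 and 32.1 ± 1.46 CPM in iGABA cells (edgeR adjusted p = 1.49e-08). Among 9 genes of p27 turnover and the FOXO factors, 3 were higher and 5 lower in iGABA than in MEF cells, or 2 lower with total counts alone as the scale. Cks1b, a cofactor in p27 degradation, fell from 49.7 ± 1.101 CPM to 13.2 ± 1.69 CPM (edgeR adjusted p = 6.57e-10). Rnf123, also of p27 turnover, had the largest rise of the list, from 33.5 ± 1.86 CPM to 82.1 ± 3.11 CPM (edgeR adjusted p = 2.67e-10). Foxo3, a factor known to switch on Cdkn1b, rose from 108 ± 6.35 CPM to 255 ± 8.24 CPM (edgeR adjusted p = 2.18e-10).

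Of 18 genes known to regulate the Cdkn2a and Cdkn2b locus, mostly Polycomb subunits and repressors, 9 were higher and 8 lower in iGABA than in MEF cells, and 7 were higher and 9 lower in GAD67 than in MEF cells. Over all tested genes, 42.1% were higher and 39.7% lower in iGABA cells, and 43.1% and 43.8% in GAD67 cells. The counts of the list are near these shares. Cbx7, a Polycomb subunit, stood at 7.26 ± 0.609 CPM in MEF, 61.9 ± 2.63 CPM in iGABA and 44.3 ± 5.48 CPM in GAD67 cells. Bmi1, another Polycomb subunit, was 36.3 ± 2.07 CPM in MEF and 214 ± 12.1 CPM in GAD67 cells (edgeR adjusted p = 1.34e-12). Rnf2, also a Polycomb subunit, went the other way, from 127 ± 5.82 CPM in MEF to 43.4 ± 0.836 CPM in iGABA cells (edgeR adjusted p = 1.69e-11). Tbx3, a T-box repressor of the locus, was 110.5 ± 3.62 CPM in iGABA and 0.377 ± 0.0898 CPM in GAD67 cells (edgeR adjusted p = 5.46e-15). Hmga2, an embryonic chromatin protein known to lower Cdkn2a, fell from 185 ± 6.72 CPM in MEF to 0.194 ± 0.0230 CPM in iGABA cells (edgeR adjusted p = 2.36e-15).

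Lists of the wider p53 pathway held calls in both directions, as did all tested genes. Of all tested genes, 42.1% were higher and 39.7% lower in iGABA than in MEF cells. For GAD67 against MEF cells these shares were 43.1% and 43.8%. Of 20 regulators and relatives of p53 tested, 12 were higher and 6 lower in iGABA than in MEF cells (1 lower with total counts alone as the scale), and 16 were higher and 3 lower in GAD67 than in MEF cells. Their median log2 difference was 0.38 and 0.999, against 0.05 and 0.00 for all genes. Trp53bp1, a DNA damage response protein that binds p53, rose from 78.0 ± 7.34 CPM in MEF to 354 ± 3.75 CPM in iGABA cells (edgeR adjusted p = 1.71e-11) and 438 ± 31.4 CPM in GAD67 cells (edgeR adjusted p = 2.72e-12). Chek2, a damage kinase that acts on p53, was 13.4 ± 0.942 CPM in iGABA and 2.66 ± 0.689 CPM in GAD67 cells (edgeR adjusted p = 1.09e-08).

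Among 18 further p53 targets of arrest and repair, 7 were higher and 11 lower in iGABA than in MEF cells, with a median log2 difference of -0.63. In GAD67 against MEF cells 4 were higher and 14 lower, with a median of -2.95. In iGABA against GAD67 cells 14 were higher and 4 lower, with a median of 1.90, beside 41.3% and 39.3% of all tested genes. The medians of all tested genes were 0.05, 0.00 and 0.02 in the 3 comparisons in that order. Btg2, an antiproliferative gene, rose from 113 ± 4.09 CPM in MEF to 304 ± 11.7 CPM in iGABA cells (edgeR adjusted p = 6.16e-11). Gadd45a, a growth arrest and DNA damage gene, fell from 162 ± 6.95 CPM to 2.15 ± 0.127 CPM (edgeR adjusted p = 9.82e-14). Sesn2, a stress-induced regulator of growth signalling, was 49.8-fold higher in iGABA than in GAD67 cells, at 118 ± 6.58 CPM against 2.37 ± 0.0219 CPM (edgeR adjusted p = 8.91e-15). Plk2, a kinase of neuronal synapses as well as of damaged cells, was higher in GAD67 cells, at 104 ± 17.3 CPM against 31.1 ± 1.81 CPM in iGABA cells (edgeR adjusted p = 3.06e-09).

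Among 13 p53 targets of cell death, 3 were higher and 10 lower in iGABA than in MEF cells (median -1.08). In GAD67 against MEF cells 2 were higher and 11 lower (median -2.31). Between iGABA and GAD67 cells 10 were higher in iGABA and 3 lower (median 2.21), beside 41.3% and 39.3% of all tested genes (median 0.02). Fas, a death receptor gene, fell from 37.5 ± 1.12 CPM in MEF to 1.07 ± 0.295 CPM in iGABA cells (edgeR adjusted p = 5.26e-12). Pidd1, which encodes a death domain protein, rose from 10.6 ± 1.27 CPM to 61.7 ± 2.46 CPM (edgeR adjusted p = 1.39e-11). Pmaip1, the gene of the BH3 protein Noxa, was 54.8-fold higher in iGABA than in GAD67 cells, at 31.4 ± 0.724 CPM against 0.561 ± 0.359 CPM (edgeR adjusted p = 1.98e-11). Apaf1, the core of the apoptosome, was higher in GAD67 cells, at 90.0 ± 4.12 CPM against 55.1 ± 1.64 CPM (edgeR adjusted p = 1.72e-07).

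The senescence list holds genes known to rise with senescence and others, Lmnb1, Hmgb1 and Hmgb2, known to fall with it, so its counts have no single reading. In iGABA against MEF cells, 42.1% of all tested genes were higher and 39.7% lower. For GAD67 against MEF cells these shares were 43.1% and 43.8%. None of 11 senescence genes was called higher in iGABA than in MEF cells and 9 were lower, Lmnb1 (60.8 ± 7.00 CPM against 87.3 ± 4.75 CPM) and Hmgb2 (13.6 ± 1.37 CPM against 19.7 ± 1.04 CPM) among them. With total counts alone as the scale 1 gene of the list was higher. Igfbp7, a secreted binding protein of insulin-like growth factors, fell from 305 ± 10.9 CPM to 2.50 ± 1.12 CPM (edgeR adjusted p = 4.19e-11), and Glb1, the gene of lysosomal beta-galactosidase, was 95.4 ± 2.17 CPM in iGABA and 12.8 ± 0.286 CPM in GAD67 cells (edgeR adjusted p = 1.33e-13). Of 16 proliferation genes, 2 were higher and 13 lower in iGABA than in MEF cells. Cdk1, the kinase of mitosis, fell from 77.7 ± 4.79 CPM to 17.4 ± 6.44 CPM (edgeR adjusted p = 2.77e-07), and Mcm2, a replication helicase subunit, rose from 42.7 ± 1.15 CPM to 104 ± 7.56 CPM (edgeR adjusted p = 4.40e-09). Between iGABA and GAD67 cells 9 of the 16 proliferation genes were higher in iGABA and 1 lower, beside 41.3% and 39.3% of all tested genes. The count of higher genes became 14 without iGABA replicate 5 and 5 without iGABA replicate 6. Among 12 immediate early and dissociation genes, 1 was higher and 7 lower in iGABA than in MEF cells, and 3 were higher and 8 lower in GAD67 than in MEF cells. The 1 higher gene became 2 without GAD67 replicate 8, 3 without GAD67 replicate 9, 3 with only the 6 libraries compared and 4 with total counts alone as the scale.

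**Figure D4:**
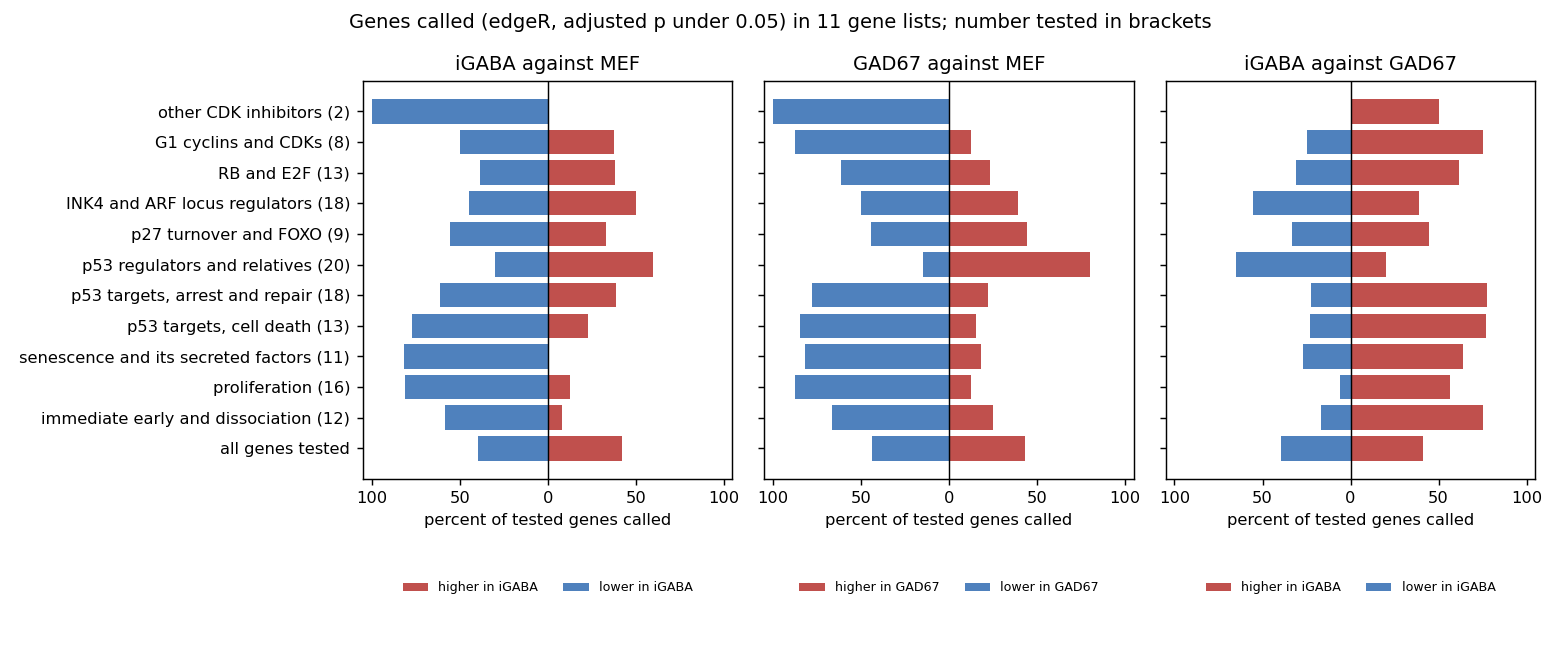
Percent of tested genes called higher or lower in each pathway list and among all genes tested, for each of the 3 comparisons. Numbers in brackets give the genes tested in each list. p53 targets are mostly lower in GAD67 than in MEF cells and mostly higher in iGABA than in GAD67 cells.

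Genes with the most similar pattern were taken as those nearest in centred log2 CPM over the 9 libraries, among 15188 candidates. Nearest to Cdkn1a was Smim1, at a distance of 0.351, with 26.2 CPM in MEF, 38.3 CPM in iGABA and 0.451 CPM in GAD67 cells, followed by Sft2d2 (0.374) and Agtrap (0.384). Cdkn1b had closer neighbours, with Ncbp1 at a distance of 0.123 and 57.6, 74.2 and 124 CPM in the 3 cell types in that order, followed by Wdr3 (0.144) and Ddx42 (0.157). Nearest to Cdkn2c were Tmem143 (0.417), Tubb4b (0.471) and Trib1 (0.502), and nearest to Trp53 were Tomm34 (0.143), Trappc2l (0.152) and Txndc15 (0.163).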

How the data were processed

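Per the labels' protocols, total RNA was made into libraries by the dUTP method, which marks strand. The deposited table holds whole-number read counts per gene made by the authors, not normalised, for 9 libraries of 27501521 to 38975523 counts. Per the submitters' processing notes, BWA 0.7.2, featureCounts, DESeq 1.10.1 and mm10 were used; the sources used here give no role for each, no annotation release and no strand setting, so reads of a gene and of an antisense partner cannot be told apart. Of the 10 genes, only Cdkn1a shares exon bases with another GENCODE vM21 gene (90 bases, 4.05% of its exons). A count of 0 allows up to 3 counts, or 0.0717 to 0.110 CPM, and PCR copies make such limits cover counting error only.

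Symbols came from GENCODE vM21 (35449 of 37224 genes). In R 4.3.3, 18085 genes passed edgeR's filterByExpr (minimum count 10, minimum total 15), TMM set the library scale, and 1 quasi-likelihood model (edgeR 4.0.16) over the 9 libraries gave every difference, its p adjusted by Benjamini-Hochberg over all 18085. The words rose, fell and called stand for an adjusted p under 0.05. CPM and RPKM use TMM-scaled totals and the table's exon lengths. On simulated counts for iGABA against MEF over 14370 genes, the test recovered 92% of 1.5-fold and 100% of 2-fold changes. The simulation gave every gene the same spread and changed few genes, all upward in iGABA, so these rates need not hold for the data. No pair of replicates agreed within sampling noise (chi-square per gene 2.49 to 30.1).

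The 10 genes and all lists were chosen with earlier results of these data known. Besides the 10, the text names from each list genes among the 2 largest rises and the 2 largest falls called with at least 5 CPM in a group, and the 3 nearest by pattern for the genes shown. Values of such a gene in the remaining cell type are given beside these. Alternatives were DESeq2 1.42.0, its size factors, total counts alone, no filter, a stricter filter, a fit of only the groups compared, and leaving out each library, with a sum of inhibitors that includes Cdkn1c added after seeing the data. Some items of the lists are not reported here.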

Additional observations from a re-analysis of the deposited data

How the results depend on the processing

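For each comparison 15 alternatives were run, 9 of which left out a library. Calls of the 10 genes moved with total counts alone as the scale, with only the groups compared and, for Ccng1, without some libraries. With total counts alone, the median log2 difference of all genes became 0.46 (iGABA against MEF), 0.22 (GAD67 against MEF) and 0.22 (iGABA against GAD67). For iGABA against MEF, Mdm2 became 0.0651, Ccng1 0.11 and Trp53 0.42, and 2 of the 10 genes were called lower in place of 4. For GAD67 against MEF, Cdkn2d became -0.12 and Trp53 0.26, and 2 of the 10 genes were called higher in place of 1. With only the libraries of iGABA and MEF fitted, Trp53inp1 passed at -0.12. Leaving out each library in turn gave Ccng1 values of -0.34 to -0.29 for iGABA against MEF, with 4 calls lost. No other call of the 10 genes in the 3 comparisons changed. No paired analysis was possible because the replicate numbers, 1 to 9, are not shared between groups. Shares of the inhibitors computed from CPM without length were 57.1% for Cdkn1a in MEF, 67.5% in iGABA and 1.80% in GAD67 cells, and for Cdkn1b 26.3%, 24.5% and 90.02% in that order. With Cdkn1c in the sum, an alternative added after seeing the data, the share of Cdkn1a in MEF cells became 27.2%. Depth limits Cdkn2a and Cdkn2b in GAD67 cells, with 1 and 10 reads in all.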

Other observations

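The region around the INK4 genes was looked at after the values of Cdkn2a and Cdkn2b were seen. Of 35 genes within 500000 bases on each side, 4 passed the filter on low counts: Cdkn2a, Cdkn2b, Mtap and Gm12602. Mtap (chromosome 4, 89137122 to 89181081, plus strand), which encodes an enzyme of methionine salvage, stood at 95.6 ± 5.66 CPM in MEF, 8.79 ± 1.14 CPM in iGABA and 6.16 ± 0.117 CPM in GAD67 cells (SD, n = 3). Its log2 difference was -3.45 for iGABA against MEF (edgeR adjusted p = 7.29e-13) and 0.51 for iGABA against GAD67 (edgeR adjusted p = 0.000311). For Cdkn2b, the difference between iGABA and MEF cells was -3.14 and that between iGABA and GAD67 cells was 5.74. Gm12602 stood at 1.30 ± 0.0453 CPM in MEF cells and had 0 counts in the iGABA libraries.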
